A study of Mus musculus with 4 samples.

Results

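The Slit, Robo and netrin guidance genes are a set of 10 mouse genes, of 55487 in the deposited count table, chosen by symbol through GENCODE M21: the Slit ligands Slit1, Slit2 and Slit3, the Slit receptors Robo1, Robo2 and Robo4, the netrins Ntn1 and Ntn4, and the netrin receptors Unc5b and Unc5c. They were read in bulk RNA-seq of skeletal stem cells from ovariectomized wild-type mice (2 libraries) and from sham-operated wild-type mice (2 libraries), all with the label 8 weeks, which does not say whether it is an age or a time after surgery. Removal of the ovaries lowers oestrogen, and the series title sets the comparison against the progression of osteoporosis. The cells were released from the metaphyses of long bones with collagenase and sorted by flow cytometry after staining of CD51, CD90, CD105, 6C3 and CD200, which divide skeletal stem cells from their progeny, and of the blood and endothelial antigens CD45, Ter119 and Tie2. The labels give neither the gate nor the number of mice behind a library, and nothing says that the libraries of a group came from separate animals. The p-values therefore measure the spread between these libraries, which may be technical.

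Slit proteins are large secreted ligands that act on Robo receptors, single-pass membrane proteins that steer growing axons and migrating cells, usually by repulsion. Netrins are laminin-related secreted proteins that attract through the receptors Dcc and neogenin and repel through receptors of the Unc5 family. Both systems also act outside the nervous system: Robo4 is a receptor of endothelial cells, Unc5b acts in vessel sprouting, Slit3 has been described in mice as a signal between bone cells and vessels of bone, and netrin 1 has been linked to osteoclast formation.

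Of the 10 genes, Ntn1 changed: it rose 4.89-fold after ovariectomy. Slit3 and Ntn4 were also above sham in both ovariectomy libraries, and Unc5c, the most abundant receptor of the set, was below sham in both, but none of these 3 passed the threshold (adjusted p under 0.05 over all genes tested). Slit2, Robo1, Robo2, Robo4 and Unc5b had 95% intervals that included no change, and Slit1 had between 1 and 2 counts per library, too few to test. Thus 9 of the 10 genes passed the filter on low counts, with 1 higher and 0 lower. Over all 17120 genes tested, 2.98% were called higher, 1.2% lower and 4.18% either way (71.2% of the calls were higher, and 82.2% when libraries were scaled by their totals alone), so a single call among 9 genes does not set the group apart from the background. The median log2 fold change was 0.40 over the 9 genes and -0.02 over all genes tested. The 0.40 is the value of Robo4 (SE 0.85), whose counts were low and whose groups overlapped. It is not read as a shift of the set.

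**Figure D1:**
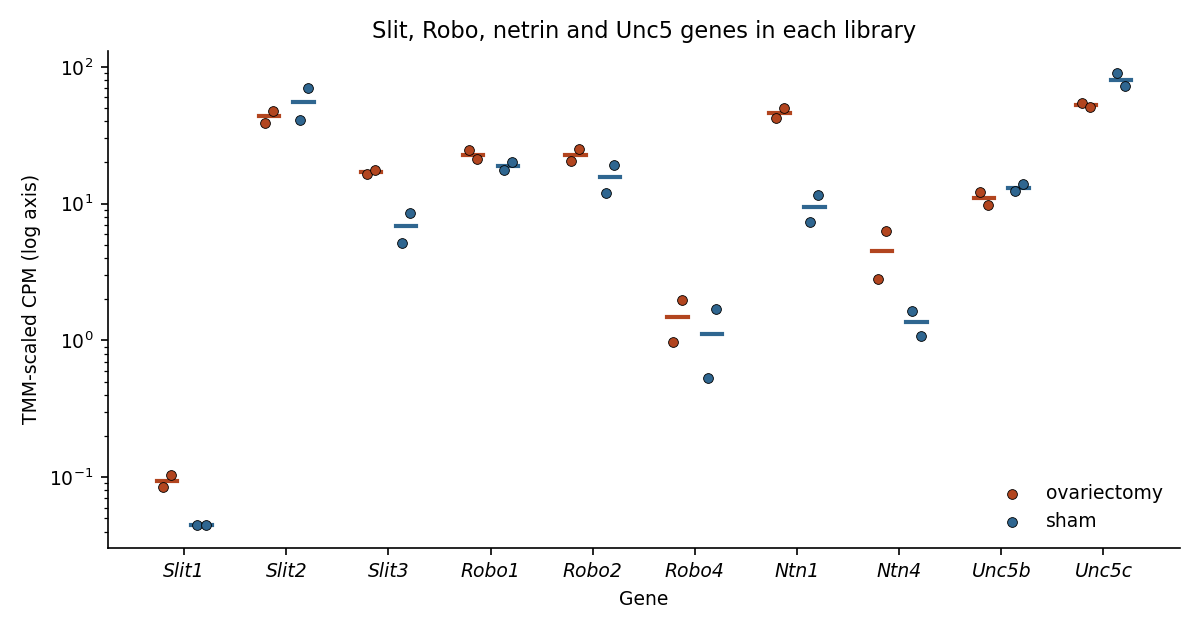
TMM-scaled read counts (CPM, log axis) of the 10 genes, with a point for each library, ovariectomy left of sham, and a line at the mean of the 2 libraries. For Ntn1 the ovariectomy points, at 42.5 and 49.9 CPM, lie well above the sham points, at 7.31 and 11.6 CPM, while the points of Slit2 and Robo4 overlap between the groups.

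The libraries held 23228031 and 18291436 counts (ovariectomy 1 and 2) and 22935095 and 23721078 counts (sham 1 and 2), so that 1 count is worth between 0.0423 and 0.0519 CPM. Values are given as CPM, read counts scaled by library size and a TMM factor for library composition. The sham libraries differed more from each other (chi-square per degree of freedom of 28.6 over genes) than the ovariectomy libraries (13.9), and both pairs differed by more than sampling noise. Of the antigens of the sort, Itgav (CD51) had 69.0 and 72.0 CPM in ovariectomy and 70.4 and 67.3 CPM in sham libraries, and Cd200 had 173 and 155 CPM in ovariectomy and 237 and 305 CPM in sham libraries. Cd200 fell after ovariectomy (log2 fold change -0.73 ± 0.15 SE, edgeR adjusted p = 0.0462). Enpep and Tek had higher values after ovariectomy, and neither passed the threshold. Enpep (6C3) had 4.40 and 3.64 CPM in ovariectomy and 1.52 and 1.91 CPM in sham libraries (edgeR adjusted p = 0.220), and Tek (Tie2) had 7.53 and 9.76 CPM in ovariectomy and 0.223 and 5.52 CPM in sham libraries (edgeR adjusted p = 0.474). Thy1 (CD90) was between 0.134 and 0.211 CPM, too low to test, and Ptprc (CD45) was between 3.55 and 9.55 CPM in the 4 libraries. RNA of cartilage and bone cells was abundant, with Col2a1 at 40260 and 36880 CPM in ovariectomy and 73170 and 65390 CPM in sham libraries, and Col1a1 at 61080 and 57190 CPM in ovariectomy and 62490 and 88750 CPM in sham libraries.

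To compare levels between genes, CPM were divided by the length of the longest protein-coding transcript. On this scale Ntn1 was the most abundant of the 10 genes in ovariectomy libraries, at 7.86 ± 0.89 CPM per kb (SD, n = 2, as for the other levels here), followed by Unc5c at 5.42 ± 0.27, Slit2 at 4.36 ± 0.64 and Slit3 at 3.25 ± 0.17 CPM per kb, and the ranges of these 4 genes did not overlap. Robo1, at 3.02 ± 0.31 CPM per kb, overlapped in range with Slit3 above it and with Robo2, at 2.63 ± 0.37 CPM per kb, below it. Unc5b (1.87 ± 0.30 CPM per kb) and Ntn4 (1.25 ± 0.68 CPM per kb) overlapped each other, and Robo4 (0.298 ± 0.143 CPM per kb) and Slit1 (0.0166 ± 0.0024 CPM per kb) came last. In sham libraries the order was led by Unc5c, at 8.37 ± 1.30 CPM per kb, and Slit2, at 5.57 ± 2.05 CPM per kb. Robo1 (2.49 ± 0.23 CPM per kb), Unc5b (2.23 ± 0.18), Robo2 (1.81 ± 0.61), Ntn1 (1.61 ± 0.51) and Slit3 (1.31 ± 0.47) followed, and each overlapped in range with the next of these 5. Ntn1 was thus 1st of the 10 levels per kb in ovariectomy and 6th in sham libraries. Divided by the total annotated exon length, which for Slit2 is 25433 bases against 9960 bases in its longest coding transcript, Slit2 came 5th and Slit3 2nd in ovariectomy libraries, and Ntn1 was 1st in ovariectomy and 4th in sham libraries, so the order depends on the length used.

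The fold changes of Slit3 and Slit2 had opposite signs, and neither passed the threshold. Slit3 (ENSMUSG00000056427, chromosome 11, 35121224 to 35708507, plus strand, GRCm38) had 16.4 and 17.6 CPM in ovariectomy libraries, against 5.13 and 8.59 CPM in sham libraries. Both ovariectomy values lay above both sham values. The log2 fold change was 1.31 ± 0.30 SE (95% interval 0.60 to 2.02), with an edgeR adjusted p of 0.0644. Slit3 passed the threshold when libraries were scaled by their totals alone (adjusted p = 0.0377), with the DESeq2 test (0.00746), with limma-voom (0.0296), with no filter on low counts (0.000469) and at a mean of at least 5 CPM (0.0244). It did not with DESeq2 size factors in edgeR (0.0647) or with upper-quartile scaling (0.0616). Without sham 1 or sham 2 it passed (log2 fold change 0.98 and 1.74), with a spread from the ovariectomy pair alone. Without ovariectomy 1 or ovariectomy 2 it did not (1.38 and 1.27), with a spread from the sham pair alone.

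Slit2 (ENSMUSG00000031558, chromosome 5, 47983138 to 48307733, plus strand), the best studied of the Slit ligands, had 38.9 and 47.9 CPM in ovariectomy libraries, against 41.0 and 69.9 CPM in sham libraries. Sham 2 was the highest of the 4 libraries, sham 1 lay between the ovariectomy libraries, and the groups overlapped. The log2 fold change was -0.35 ± 0.25 SE (95% interval -0.95 to 0.24, edgeR adjusted p = 0.545). Its value turned on the sham libraries: it was 0.09 without sham 2 and -0.68 without sham 1, where Slit2 was called lower. The spread in those fits came from the ovariectomy pair alone. Of the 8 alternatives that left out no library, 0 called Slit2. Slit1, a mainly neural member of the family (ENSMUSG00000025020, chromosome 19, 41600257 to 41743665, minus strand), had 2 and 2 counts in ovariectomy and 1 and 1 counts in sham libraries, under a floor of 3 counts, and no fold is given.

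The ratio of Slit3 to Slit2 counts in a library does not depend on how libraries are scaled. It was 0.420 and 0.368 in ovariectomy libraries, against 0.125 and 0.123 in sham libraries, which were nearly equal to each other. The gap between the groups was larger than the spread within either. With 2 libraries a group an exact permutation test cannot go below p = 0.333, the value found here (two-sided, adjusted p = 0.466 over the 7 ratios computed), so the difference between the paralogs is given as a description.

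**Figure D2:**
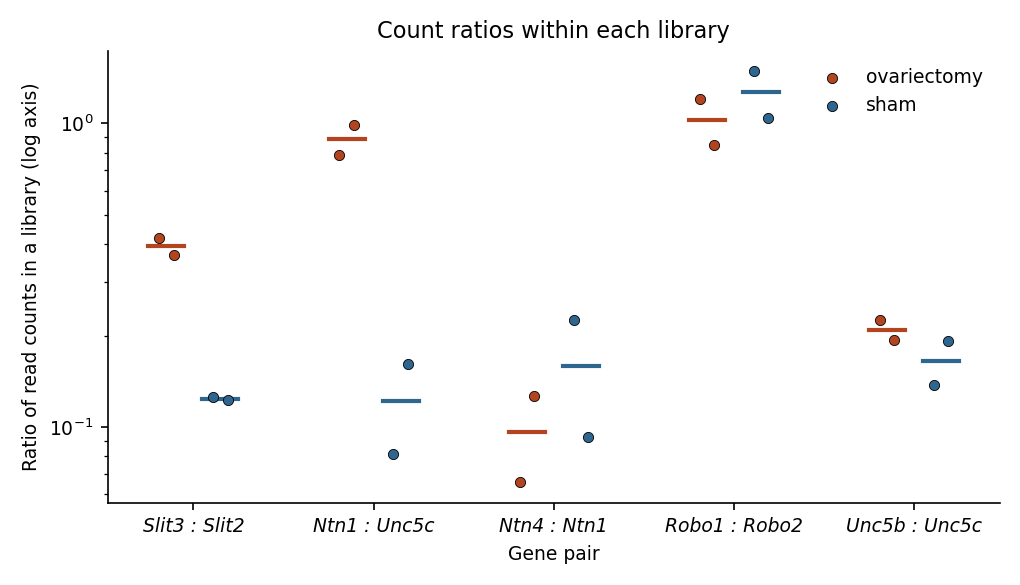
Ratio of read counts of 5 gene pairs within each library (log axis), with a point for each library, ovariectomy left of sham, and a line at the mean. The ratio of Slit3 to Slit2 was 0.420 and 0.368 in ovariectomy and 0.125 and 0.123 in sham libraries, and that of Robo1 to Robo2 overlapped between the groups.

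The promoters of Slit3 and Slit2 are shown because the fold changes of these paralogs had opposite signs, and that of Unc5c because it was the receptor with the lowest p among those that were below sham. They are RefSeq sequences of build GRCm38.p6, from 250 bases before to 50 bases after the gene start in RefSeq, read 5′ to 3′ on the strand of the gene. That start lies downstream of the GENCODE start printed for each of these 3 genes, so the windows of Slit3 and Unc5c hold mostly, or wholly, bases downstream of the GENCODE start. Capitals mark the GC box GGGCGG on either strand, where overlapping matches run together.
Slit3, plus strand, chr11:35121206-35121505: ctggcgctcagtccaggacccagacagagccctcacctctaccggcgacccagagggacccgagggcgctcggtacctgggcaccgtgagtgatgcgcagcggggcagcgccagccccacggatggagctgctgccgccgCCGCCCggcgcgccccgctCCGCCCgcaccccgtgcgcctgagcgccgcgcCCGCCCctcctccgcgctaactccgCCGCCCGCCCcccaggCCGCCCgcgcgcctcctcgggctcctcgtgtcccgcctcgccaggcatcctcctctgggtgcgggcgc
Slit2, plus strand, chr5:47982905-47983204: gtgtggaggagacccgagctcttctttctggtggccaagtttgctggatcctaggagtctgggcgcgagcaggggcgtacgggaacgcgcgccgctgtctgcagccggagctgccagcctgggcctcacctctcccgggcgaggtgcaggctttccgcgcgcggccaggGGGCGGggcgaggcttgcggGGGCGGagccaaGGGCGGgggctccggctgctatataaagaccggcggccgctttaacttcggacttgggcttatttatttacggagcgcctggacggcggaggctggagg
Unc5c, plus strand, chr3:141465314-141465613: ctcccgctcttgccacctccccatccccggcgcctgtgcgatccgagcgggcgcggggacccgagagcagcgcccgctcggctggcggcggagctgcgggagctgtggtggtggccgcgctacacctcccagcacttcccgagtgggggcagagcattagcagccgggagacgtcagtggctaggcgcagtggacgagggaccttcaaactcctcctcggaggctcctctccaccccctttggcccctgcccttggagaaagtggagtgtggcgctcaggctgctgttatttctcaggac
The Slit3 window held 6 GC boxes and 41 CpG dinucleotides at 78.3% G and C, the Slit2 window 3 GC boxes and 30 CpG dinucleotides at 68.0%, and the Unc5c window 0 GC boxes and 24 CpG dinucleotides at 68.3%, against a median of 7 CpG dinucleotides and 52.7% over 32851 promoters of the same length. GGGCGG was in 35.7% of those promoters. Slit2 alone of the 3 held the TATA box TATAAA (in 13.6% of promoters). None of these windows held the nuclear receptor half-site AGGTCA (in 16.3% of promoters), the AP-1 motif TGANTCA (7.81%) or the E-box CANNTG (72.3%). All motifs were searched on both strands, and no letters are shared between matches of different motifs in these windows. Of the 10 genes, 8 were matched to a promoter, all but Ntn1 and Slit1. Among the windows not shown, those of Ntn4 and Robo4 held 1 half-site AGGTCA each, and none held the oestrogen response element.

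Slit2 and Slit3 each carry, within their span and outside their annotated exons, a gene of the same microRNA, miR-218, which is known in mice to target Robo receptors. The mature 5p sequence is identical from both hosts and is shown because the host genes differ here in their fold change. Its seed, bases 2 to 8, is in capitals (RefSeq, GRCm38.p6, Mir218-1 at chr5:48223966-48223986 and Mir218-2 at chr11:35616840-35616860, both on the plus strand).
mmu-miR-218-5p: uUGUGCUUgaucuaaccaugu
The hairpin genes Mir218-1 and Mir218-2 had 0 counts in all 4 libraries. An mRNA library is not made to capture mature microRNAs, so the level of miR-218 is not measured here.

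None of the Slit receptors passed the threshold, and the interval of each included no change. Robo1 (ENSMUSG00000022883, chromosome 16, 72308306 to 73046095, plus strand), a broadly expressed Slit receptor, had 24.5 and 21.2 CPM in ovariectomy and 17.6 and 20.1 CPM in sham libraries. Both ovariectomy values were above both sham values, by a log2 fold change of 0.28 ± 0.20 SE (95% interval -0.18 to 0.74, edgeR adjusted p = 0.539). Robo2 (ENSMUSG00000052516, chromosome 16, 73891839 to 74411825, minus strand), its neighbour on the chromosome, had 20.4 and 24.9 CPM in ovariectomy and 11.9 and 19.2 CPM in sham libraries. The groups were narrowly apart, and the log2 fold change was 0.54 ± 0.27 SE (95% interval -0.10 to 1.18, edgeR adjusted p = 0.361). Without sham 2 Robo2 was called higher (log2 fold change 0.94), in a fit whose spread came from the ovariectomy pair alone. Of the 8 alternatives that left out no library, 0 called it. Robo1 to Robo2 counts stood at 1.20 and 0.852 in ovariectomy and 1.48 and 1.04 in sham libraries, which overlapped. Slit2 and Slit3 counts together were 1.23 and 1.42 times those of Robo1 and Robo2 together in ovariectomy libraries, against 1.57 and 2.0 times in sham libraries.

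Robo4 (ENSMUSG00000032125, chromosome 9, 37401897 to 37415115, plus strand), the endothelial member, was low, with 23 and 38 counts (0.972 and 1.97 CPM) in ovariectomy and 12 and 38 counts (0.535 and 1.69 CPM) in sham libraries. Each group held a lower and a higher library and the groups overlapped (log2 fold change 0.40 ± 0.85 SE, 95% interval -1.59 to 2.38, edgeR adjusted p = 0.885). The summed CPM of 15 endothelial markers was 159 and 198 in ovariectomy and 49.1 and 146 in sham libraries, with Cdh5 and Emcn at 0 counts in sham 1, the library with the least Robo4. Eng, the most abundant of them, encodes CD105, an antigen stained in the sort that skeletal cells can also carry, and had 75.2 and 83.1 CPM in ovariectomy and 21.6 and 52.1 CPM in sham libraries. edgeR called 0 of the 15 markers (3 at an unadjusted p under 0.05, 1 called higher with the DESeq2 test and 1 with limma-voom), and 6 were above sham in both ovariectomy libraries. Over all genes tested, 25.5% were above sham in this way, and 3154 of 17120 had an unadjusted p under 0.05. Of these 17120 genes the DESeq2 test called 930 higher and limma-voom 634. In bulk samples, fewer cells of a type and less RNA per cell cannot be told apart. Without sham 1 the log2 fold change of Robo4 was -0.20.

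Among the netrins, Ntn1 (ENSMUSG00000020902, chromosome 11, 68209364 to 68400823, minus strand) had 1005 and 960 counts in ovariectomy libraries, against 164 and 260 counts in sham libraries. In CPM this was 42.5 and 49.9 in ovariectomy and 7.31 and 11.6 in sham libraries, a mean of 46.2 ± 5.21 in ovariectomy and 9.45 ± 3.01 in sham libraries (SD, n = 2 each). The lower ovariectomy library was well above the higher sham library. Ntn1 rose by a log2 fold change of 2.29 ± 0.25 SE (95% interval 1.70 to 2.88, edgeR adjusted p = 0.00501). The log2 fold change stayed between 2.25 and 2.40 across other scalings, tests and filters, where the gene was called each time, and was 2.0 without sham 1 and 2.67 without sham 2. Without ovariectomy 1 or ovariectomy 2 it was 2.42 and 2.18 and the call was lost (adjusted p = 0.214 and 0.202). In those fits, whose spread came from the sham pair alone, edgeR called 0 of all genes (1788 and 1618 at an unadjusted p under 0.05). In the same libraries 6 of 9 fibroblast markers were called higher and 8 of 10 chondrocyte markers lower. Among all genes tested, 2.98% were called higher and 1.2% lower. The part of these cell types in the value of Ntn1 was not tested.

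**Figure D3:**
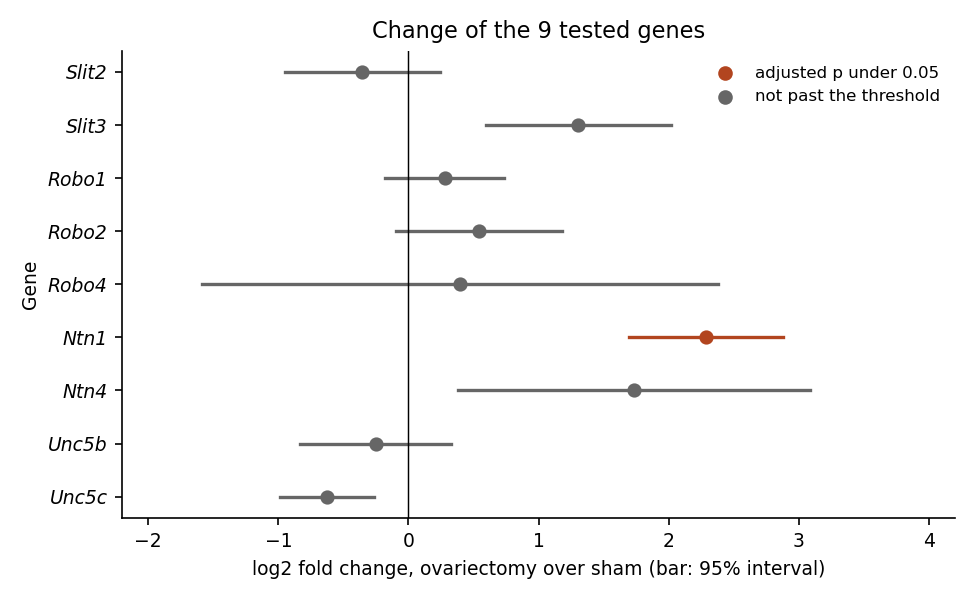
Log2 fold change, ovariectomy over sham, of the 9 tested genes with 95% intervals from the edgeR fit. Ntn1 alone passed the threshold, at 2.29, and the intervals of Slit3, Ntn4 and Unc5c also lay to one side of 0 without passing after adjustment over all genes.

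Ntn4 (ENSMUSG00000020019, chromosome 10, 93640681 to 93747207, plus strand), a netrin of basement membranes that binds laminin, was low, with 66 and 121 counts (2.79 and 6.28 CPM) in ovariectomy and 37 and 24 counts (1.65 and 1.07 CPM) in sham libraries. Ovariectomy 2 stood far above the other 3 libraries and ovariectomy 1 was nearer to sham. The log2 fold change was 1.73 ± 0.58 SE (95% interval 0.38 to 3.08, edgeR adjusted p = 0.162), and 1.05 without ovariectomy 2. Without sham 1 Ntn4 was called higher (log2 fold change 2.08), in a fit whose spread came from the ovariectomy pair alone. Of the 7 alternatives that left out no library and tested Ntn4, 0 called it. The ratio of Ntn4 to Ntn1 counts overlapped between the groups, at 0.0657 and 0.126 in ovariectomy and 0.226 and 0.0923 in sham libraries.

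Both Unc5 receptors had lower values after ovariectomy, and neither passed the threshold. Unc5c (ENSMUSG00000059921, chromosome 3, 141465216 to 141834924, plus strand) had 54.2 and 50.4 CPM in ovariectomy libraries, against 89.6 and 71.9 CPM in sham libraries. Both ovariectomy libraries were below both sham libraries, and the log2 fold change was -0.63 ± 0.15 SE (95% interval -0.99 to -0.27, edgeR adjusted p = 0.0760). It passed with the DESeq2 test (adjusted p = 0.00974), with no filter (0.00743) and at a mean of at least 5 CPM (0.0232). It did not with library totals (0.121), DESeq2 size factors in edgeR (0.0749), upper-quartile scaling (0.0635) or limma-voom (0.05, not under the threshold). Without sham 2 it passed (log2 fold change -0.76), with a spread from the ovariectomy pair alone. It did not without any of the other 3 libraries (log2 fold change between -0.66 and -0.46). Of its exon length, 0.617% overlaps Gm15688 on the opposite strand, and no other gene of the 10 shares exon bases with an annotated gene.

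Unc5b (ENSMUSG00000020099, chromosome 10, 60762593 to 60831581, minus strand), the receptor of the family known from vessel sprouting, had 12.2 and 9.71 CPM in ovariectomy and 12.3 and 13.8 CPM in sham libraries. Ovariectomy 1 and sham 1 were nearly equal, and the log2 fold change was -0.25 ± 0.25 SE (95% interval -0.83 to 0.33, edgeR adjusted p = 0.685). The ratio of Unc5b to Unc5c counts was 0.225 and 0.193 in ovariectomy and 0.137 and 0.192 in sham libraries.

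Of the 7 ratios computed, those of Ntn1 to the Unc5 receptors of the set differed most between the groups. Neo1, another netrin receptor, is in none of these ratios. It had 64.4 and 73.8 CPM in ovariectomy and 107 and 102 CPM in sham libraries. Ntn1 counts were 0.785 and 0.989 times those of Unc5c in ovariectomy libraries, against 0.0816 and 0.161 times in sham libraries. Set against Unc5b and Unc5c together they were 0.641 and 0.829 times in ovariectomy and 0.0718 and 0.135 times in sham libraries. These ratios are free of scaling and the groups were apart. The exact permutation test cannot go below p = 0.333 with 2 libraries a group, and gives that value whenever the groups are apart. It gave 0.333 for each (two-sided, adjusted p = 0.466 over the 7 ratios), so these ratios are given as a description. Of the reads of the 10 genes (scaled to CPM, not corrected for length), Ntn1 took 20.0% and 21.7% in ovariectomy and 3.91% and 5.31% in sham libraries, and Unc5c took 25.4% and 21.9% in ovariectomy and 47.9% and 33.0% in sham libraries. Robo1 took between 9.22% and 11.5% in all 4 libraries. The summed level of the 10 genes was 213 and 230 CPM in ovariectomy and 187 and 218 CPM in sham libraries, which overlapped.

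**Figure D4:**
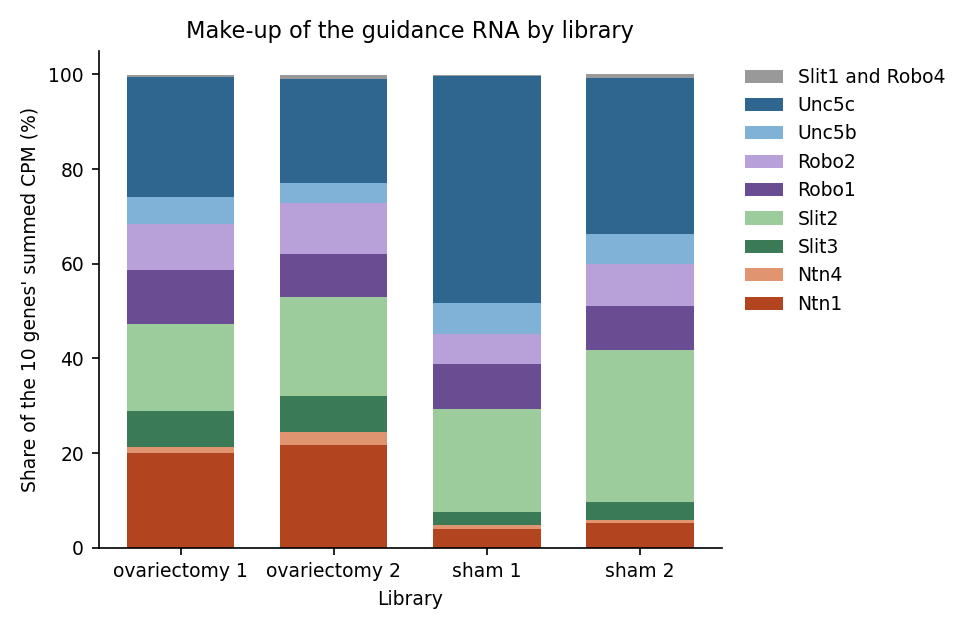
Share of each gene in the summed CPM of the 10 genes (%), a bar for each library, not corrected for gene length. The Ntn1 part is 20.0% and 21.7% in the ovariectomy bars and 3.91% and 5.31% in the sham bars, and the Unc5c part is 25.4% and 21.9% in the ovariectomy bars and 47.9% and 33.0% in the sham bars.

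By their direction alone, 5 of the 9 tested genes (Slit3, Robo1, Robo2, Ntn1 and Ntn4) had both ovariectomy libraries above both sham libraries and 2 (Unc5b and Unc5c) had both below. Over all genes tested, 25.5% were above and 23.9% below in this way, and 49.3% did one or the other. At an unadjusted p under 0.05 there were 4 of the 9 genes (Slit3, Ntn1, Ntn4 and Unc5c) and 3154 of all 17120.

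A wider list of 46 genes of both pathways was read in the same fit, of which 43 were tested, with 3 higher and 0 lower and a median log2 fold change of 0.18, beside the 2.98% higher and 1.2% lower among all genes tested. The DESeq2 test called 4 higher and 4 lower, beside 930 higher and 486 lower of all 17120 genes tested. With limma-voom 4 were higher and 2 lower, beside 634 higher and 313 lower of all genes tested. Of the 43 genes, 13 had an unadjusted p under 0.05, as had 3154 of all 17120 genes tested. All 3 genes called by edgeR belong to the list of netrin and repulsive guidance molecule genes, where 23 of 25 genes were tested with a median of 0.24. Rgmb (chromosome 17), a repulsive guidance molecule that binds neogenin and is also a BMP co-receptor, had 46.6 and 43.1 CPM in ovariectomy and 12.3 and 15.2 CPM in sham libraries (log2 fold change 1.71 ± 0.19 SE, edgeR adjusted p = 0.00482). Ablim1 (chromosome 19), an actin-binding LIM protein whose worm counterpart acts in netrin-guided axon growth, had 53.1 and 72.1 CPM in ovariectomy and 19.3 and 20.4 CPM in sham libraries (1.65 ± 0.19, edgeR adjusted p = 0.00573). Elmo1 (chromosome 13), which with Dock1 activates the small GTPase Rac, had 111 and 137 CPM in ovariectomy and 47.5 and 54.4 CPM in sham libraries (1.28 ± 0.16, edgeR adjusted p = 0.00692). In each, both ovariectomy libraries were above both sham libraries, and each call was lost without ovariectomy 1 or ovariectomy 2 (adjusted p between 0.175 and 0.224).

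Neo1 (neogenin, chromosome 9), the receptor that netrins and repulsive guidance molecules share, had 64.4 and 73.8 CPM in ovariectomy and 107 and 102 CPM in sham libraries. Both ovariectomy libraries were below sham, with a log2 fold change of -0.60 ± 0.13 SE (edgeR adjusted p = 0.0574). It was called lower with upper-quartile scaling (adjusted p = 0.0477), the DESeq2 test (0.00371), limma-voom (0.0260), no filter (0.00739) and a mean of at least 5 CPM (0.0165). It was not with DESeq2 size factors in edgeR (0.0576) or library totals (0.105). Without sham 2 it was called lower (log2 fold change -0.62), with a spread from the ovariectomy pair alone. It was not called when any other library was left out. Of the other abundant genes of the netrin list, Maged1, which binds Unc5 receptors, had 597 and 584 CPM in ovariectomy and 727 and 766 CPM in sham libraries (edgeR adjusted p = 0.126), and was called lower with the DESeq2 test (adjusted p = 0.0247). The focal adhesion kinase gene Ptk2 (49.0 and 49.7 CPM in ovariectomy, 43.8 and 46.3 CPM in sham) and Dock1 (37.3 and 36.0 CPM in ovariectomy, 44.6 and 37.9 CPM in sham) had adjusted p of 0.709 and 0.670. The other classical netrin receptors had few counts. Dcc had 22 and 7 counts in ovariectomy and 3 and 16 in sham libraries, Unc5a had 23 and 61 in ovariectomy and 0 and 22 in sham libraries, and Unc5d had 9 and 7 in ovariectomy and 22 and 41 in sham libraries. None of these 3 was called (edgeR adjusted p between 0.328 and 0.874).

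The Slit-Robo list had 20 of 21 genes tested, 0 called by edgeR (8 at an unadjusted p under 0.05, 1 higher and 2 lower with the DESeq2 test, 1 higher and 1 lower with limma-voom) and a median log2 fold change of 0.11. Of all 17120 genes tested, edgeR called 2.98% higher and 1.2% lower, and 3154 had an unadjusted p under 0.05. The DESeq2 test called 930 of them higher and 486 lower, and limma-voom 634 higher and 313 lower. Of its 4 most abundant genes, Dag1 (dystroglycan, which binds Slit) had 198 and 227 CPM in ovariectomy and 133 and 161 CPM in sham libraries (log2 fold change 0.53 ± 0.14 SE, edgeR adjusted p = 0.0958). Vasp, an actin regulator, had 101 and 98.8 CPM in ovariectomy and 132 and 115 CPM in sham libraries (-0.30 ± 0.13, adjusted p = 0.273). Pak1, a kinase downstream of Rac, had 85.4 and 73.0 CPM in ovariectomy and 128 and 105 CPM in sham libraries (-0.56 ± 0.15, edgeR adjusted p = 0.103). Gpc1, a heparan sulfate proteoglycan that binds Slit, had 104 and 85.9 CPM in ovariectomy and 80.8 and 99.6 CPM in sham libraries (0.07 ± 0.16, adjusted p = 0.893), and shares 18.9% of its exon length with Ankmy1 on the opposite strand. Of the 8 alternatives that left out no library, 6 called Dag1 higher, among them the DESeq2 test (adjusted p = 0.00643) and limma-voom (0.0443). Pak1 was called lower in 4 of these 8, among them the DESeq2 test (0.0141), and not with limma-voom (0.0633). Nell2, a secreted ligand of Robo receptors, had 35 and 10 counts in ovariectomy and 1 and 0 counts in sham libraries, too few for its fitted fold change to be read as a size (edgeR adjusted p = 0.129).

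**Figure D5:**
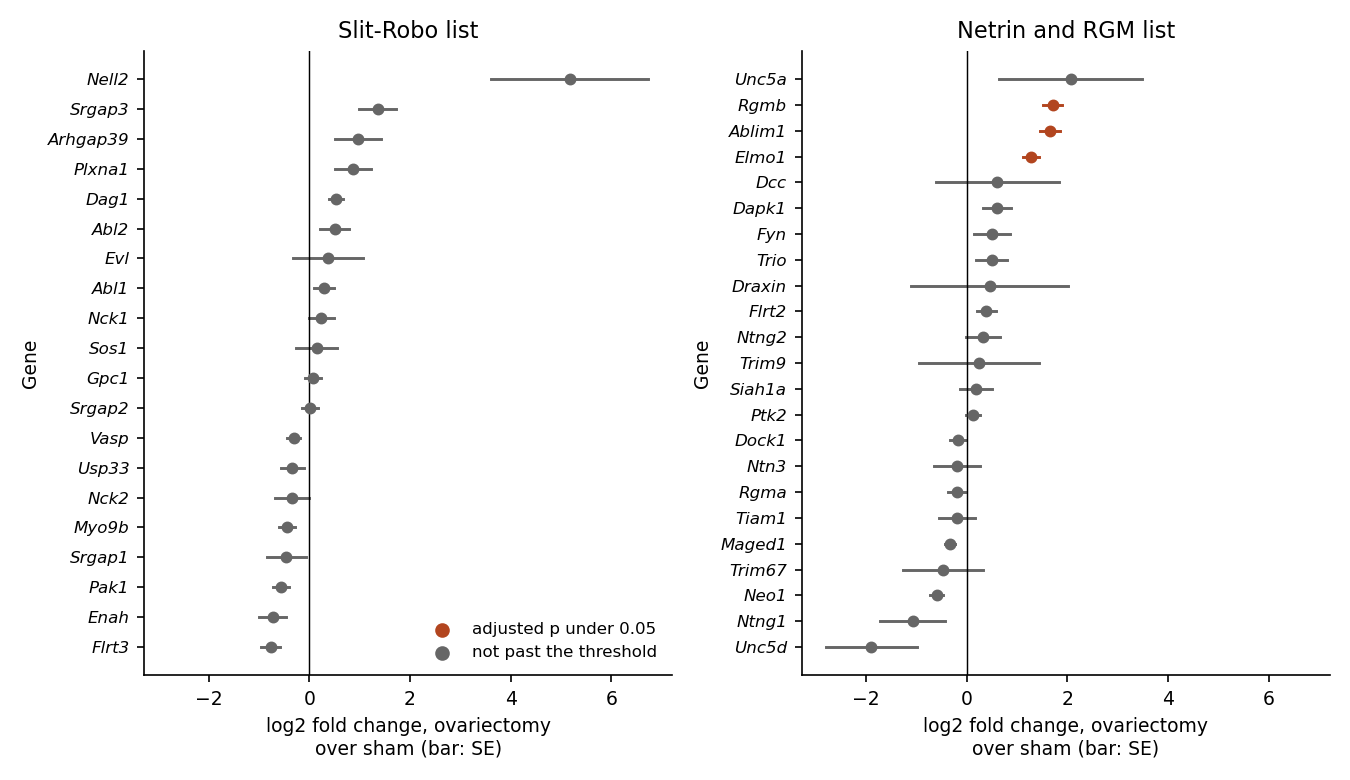
Log2 fold change, ovariectomy over sham, with its SE for the tested genes of the Slit-Robo list (left) and of the netrin and repulsive guidance molecule list (right). Rgmb, Ablim1 and Elmo1, at 1.71, 1.65 and 1.28, are the genes past the threshold, all in the right panel.

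Among 9813 candidate genes averaging 5 CPM or more, those whose pattern over the 4 libraries was most like that of Ntn1 were Fbln5 (fibulin 5, a protein of elastic fibres) and Ankrd29. Their log2 CPM, centred on the mean of the gene, differed from those of Ntn1 by a root mean square of 0.0408 and 0.0427. Fbln5 had 176 and 199 CPM in ovariectomy and 31.4 and 46.5 CPM in sham libraries, and Ankrd29 had 19.0 and 23.2 CPM in ovariectomy and 3.21 and 5.48 CPM in sham libraries. The likeness rests on 4 libraries and is a description.

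Markers of other cell types differed between the same libraries as Ntn1. Among all genes tested, 2.98% were called higher and 1.2% lower. Of 9 fibroblast markers, 6 were called higher, with a median log2 fold change of 1.88 and summed levels of 7018 and 7583 CPM in ovariectomy and 5270 and 7723 CPM in sham libraries. The sums overlapped between the groups and were mostly Dcn, an abundant matrix proteoglycan also made by bone cells, which had 5536 and 6181 CPM in ovariectomy and 4033 and 6380 CPM in sham libraries. Lum, another of these 9, lay the other way, at 984 and 850 CPM in ovariectomy and 1136 and 1195 CPM in sham libraries (edgeR adjusted p = 0.15). The DESeq2 test called 6 of the 9 higher and 1 lower. Of 11 pericyte and smooth muscle markers, 3 (Rgs5, Acta2 and Des) were called higher, with a median of 1.07 and summed levels of 620 and 696 CPM in ovariectomy and 347 and 378 CPM in sham libraries. Cspg4, the most abundant of these 11 over the 4 libraries, lay the other way, at 214 and 222 CPM in ovariectomy and 284 and 266 CPM in sham libraries (edgeR adjusted p = 0.163). Of 7 marrow stromal markers, 2 (Cxcl12, the most abundant, and Ebf1) were called higher, with the list at 356 and 485 CPM in ovariectomy and 143 and 217 CPM in sham libraries. None of the markers of these 3 lists was at 0 counts in any library.

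Chondrocyte markers lay lower after ovariectomy, as did the values of Unc5c and Neo1, neither of which passed the threshold. Over all genes tested, 2.98% were called higher, 1.2% lower, and 23.9% were below sham in both ovariectomy libraries. Of 10 chondrocyte markers, 8 were called lower and all 10 were below sham in both ovariectomy libraries, with a median log2 fold change of -0.86 and summed levels of 59770 and 54240 CPM in ovariectomy and 102100 and 94510 CPM in sham libraries. Of 8 osteoblast markers, 3 were called lower and 1 (Dmp1) higher, and the summed levels were 72370 and 66190 CPM in ovariectomy and 78720 and 107700 CPM in sham libraries. The remaining lists mark blood cells, nerves and lymphatic vessels. Of 8 tested leukocyte markers 1 was called higher, at 36.7 and 46.5 CPM for the 9 listed in ovariectomy and 31.0 and 38.5 CPM in sham libraries, with Cd3e at 0 in all but ovariectomy 2. Cd68, the most abundant of them, had 8.92 and 7.32 CPM in ovariectomy and 7.49 and 11 CPM in sham libraries, which overlapped. Of 7 tested erythroid markers 2 were called higher, at 136 and 171 CPM for the 8 listed in ovariectomy and 48.9 and 29.6 CPM in sham libraries, with Klf1 at 0 in sham 2. The erythroid sums did not overlap between the groups, and Car1, the most abundant of them, had 51.3 and 87.1 CPM in ovariectomy and 0.134 and 0.712 CPM in sham libraries. Of 5 tested Schwann and neural markers 1 was called higher, at 57.8 and 106 CPM for the 6 listed in ovariectomy and 30.6 and 41.7 CPM in sham libraries, with Nefl at 0 in all 4. Mbp, the most abundant of them, had 28.5 and 57.7 CPM in ovariectomy and 25.0 and 26.7 CPM in sham libraries. Of 2 tested lymphatic markers 0 were called by edgeR, 0 with the DESeq2 test and 0 with limma-voom (0 at an unadjusted p under 0.05), at 4.44 and 3.64 CPM for the 3 listed in ovariectomy and 4.28 and 8.82 CPM in sham libraries, with Flt4 at 0 in sham 1. Prox1, the most abundant lymphatic marker, had 3.04 and 2.34 CPM in ovariectomy and 3.57 and 7.66 CPM in sham libraries. The part of these cell types in the values of the guidance genes was not tested.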

How the data were processed

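Bulk RNA-seq was read from 1 table of raw read counts per gene, which the authors deposited for 2 ovariectomy and 2 sham libraries. The tools named in the submitters' processing notes are Trim Galore 0.6.6 and featureCounts 2.0.1, and the build is GRCm38 (mm10). Aligner, annotation release, strand setting and filters were not given in the sources used here, so reads of genes that overlap on opposite strands cannot be told apart. Per the labels' protocols, RNA came from a TRIzol extraction and the library kit was SMARTER mRNA-Seq.

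GENCODE M21 gave a symbol to 55227 of 55487 gene IDs. filterByExpr at its default settings kept 17120 genes, libraries were scaled by TMM, and ovariectomy was set against sham by edgeR 4.0.16 (R 4.3.3, glmQLFTest, two-sided, group alone, all 4 libraries), and p-values were adjusted by Benjamini-Hochberg over those genes. The threshold was an adjusted p of 0.05. The SE is the size of the log2 fold change over the square root of F, and the 95% interval uses the total degrees of freedom of the fit (2 residual, prior 5.29). The common biological coefficient of variation was 0.317. The test was checked on simulated data. Alternatives used DESeq2 1.42.0 and limma 3.58.1, other scalings and filters, and each library left out. Intervals of the fit cover the spread between libraries, and floors cover counting error only.

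The 10 genes, the wider pathway list, the marker lists and the ratios were chosen with earlier results of these data known. The text names all 10 genes, every called gene of the wider list and the 4 most abundant uncalled genes of each of its parts, from each marker list its most abundant gene and those at 0 counts, and for each called member the 2 genes most like it. The sort antigens, the called pericyte and stromal markers, Lum, Dcc, Unc5a, Unc5d and Nell2 were named after their values were seen.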

Additional observations from a re-analysis of the deposited data

How the results depend on the processing

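Over 12 alternatives, 22 genes named in the text gave 262 log2 fold changes, of which 257 kept their direction and 209 kept both direction and side of the threshold. The 5 that turned belonged to Slit2, Robo4 and Gpc1, and none was called where it turned. Of the 10 guidance genes, 1 was called higher. This count was 2 with library totals, with the DESeq2 test, with limma-voom, with no filter, at a mean of at least 5 CPM and with the replicate block, Slit3 being the second each time, and between 0 and 3 with 1 library left out. The count called lower was 0, and 1 (Unc5c) with the DESeq2 test, with no filter, at a mean of at least 5 CPM and with the replicate block, and between 0 and 1 with 1 library left out. Of the wider list, 3 were higher, 5 with no filter or at a mean of at least 5 CPM, and between 0 and 7 with 1 library left out. Its count of lower genes was 0, 1 with upper-quartile scaling, 4 with the DESeq2 test or no filter, 3 at a mean of at least 5 CPM, 2 with limma-voom or the replicate block, and between 0 and 3 with 1 library left out.

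Over all genes, 510 were higher and 206 lower. The DESeq2 test gave 930 and 486, no filter 1112 and 544, and leaving out 1 library 0 to 1277 higher and 0 to 558 lower. The lower count was 313 with limma-voom, 406 at a mean of at least 5 CPM and 329 with the replicate block. Higher genes were 71.2% of the calls and 82.2% with library totals, which shifted the median gene by 0.11 on the log2 scale. With 1 library left out of a group, its lone library was assumed to vary like those of the other group. The cause of these changes was not tested. Libraries share only their replicate numbers: same-numbered deviations from the group means correlated over genes at 0.00327, and Ntn1 was called with the block too (log2 fold change 2.32, edgeR adjusted p = 0.00014). With the block Slit3 (edgeR adjusted p = 0.0209), Unc5c (0.0359), Neo1 (0.0366), Dag1 (0.0320) and Pak1 (0.0404) also passed the threshold. Depth limits Slit1, with 1 to 2 counts per library.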
